A study of Mus musculus with 6 samples.

Results

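The 31 genes described here mark astrocytes and Bergmann glia, and they were measured in the cerebella of Galnt17 knockout (KO) and wild-type (WT) mice. The set is a named list: 5 genes known from Bergmann glia (Gdf10, Hopx, Sept4, Slc1a3 and Fabp7) and 26 genes of astrocytes in general, out of 55487 genes in the count tables. Each of the 31 was found once in the annotation and passed the filter on low counts. The KO mice were homozygous for the Galnt17tm1.1(KOMP)Vlcg allele, which is not restricted to a cell type. They descended from repository sperm used to fertilize C57BL/6J eggs, and the line was then crossed to B6C3, a C57BL/6J X C3H/He F1 hybrid, because no live homozygotes were born on the inbred background. The WT mice were B6C3 and carried no targeted allele, and the labels do not say whether they were littermates of the KO mice. RNA came from the cerebella of male mice aged 14 days, 3 KO and 3 WT, with 1 animal per library.

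Astrocytes take up glutamate and GABA from the neighbourhood of synapses, buffer potassium and water, supply lipids and metabolites and are joined to one another by gap junctions. Bergmann glia are the radial astrocytes of the cerebellar cortex. Their cell bodies lie among the Purkinje cells, their fibres cross the molecular layer to the pial surface, and in the young animal granule neurons migrate inward along them. Bergmann glia share most astrocyte genes and are known for high levels of a few, among them the glutamate transporter gene Slc1a3 and the BMP family gene Gdf10.

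Counts in genes totalled 20049223 to 29840046 per KO library and 17111611 to 24120704 per WT library. The targeted gene Galnt17, which belongs to the enzyme family that starts mucin-type O-glycosylation, was at 72, 80 and 63 reads in KO replicates 1, 2 and 3, against 1119, 729 and 963 reads in WT replicates 1, 2 and 3, as the labels give the groups. Unmapped reads made up 13.8% to 17.2% of reads in KO and 6.52% to 10.03% in WT. Markers of the main cerebellar neurons were present in every library, with 10 granule cell genes summing to 6329 to 6494 CPM in KO and 5885 to 6382 CPM in WT. WT replicate 3 stood apart by RNA of brainstem neurons, choroid plexus markers were lower in all KO libraries, and leaving out WT replicate 1 raised the share of genes called to 10.5%. These values are given beside the results they touch. Levels are given in CPM, counts scaled to library size with TMM factors, as mean ± SD with n = 3 libraries per group, and fold changes are log2 values of KO over WT with their standard error (SE) and an adjusted p from edgeR's quasi-likelihood test, adjusted over the 18237 genes tested. A gene was called at an adjusted p below 0.05.

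Most astroglial genes differed little between KO and WT. Of the 31 genes, 1 rose, 0 fell and 30 did not pass in edgeR, a called share of 3.23% beside 1.66% of all genes tested (0.784% higher and 0.872% lower). The gene that rose was Sept4. In DESeq2 2 genes were higher and 1 lower, beside 3.08% of all genes called. In limma-voom 1 was higher and 0 lower, beside 1.71% of all genes called. The median log2 fold change of the 31 was -0.014, beside -0.0073 over all genes tested, with 14 values above 0 and 17 below. In 26 of the 31 genes the fold change was smaller than 0.2 in either direction on the log2 scale, and in the same number the 95% interval of the fold change included 0. At an unadjusted p below 0.05 there were 2 higher and 3 lower genes of 31, beside 17.6% of all genes. KO and WT values did not overlap for 4 genes, 2 above and 2 below, or 12.9% of the set, beside 23.7% of all genes tested. Together the 31 genes held 0.926% to 0.951% of the counts in KO libraries and 0.908% to 0.964% in WT libraries, so the range of the WT libraries enclosed that of the KO libraries. In bulk tissue, a change in the number of glial cells and a change in RNA per glial cell cannot be told apart.

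**Figure D1:**
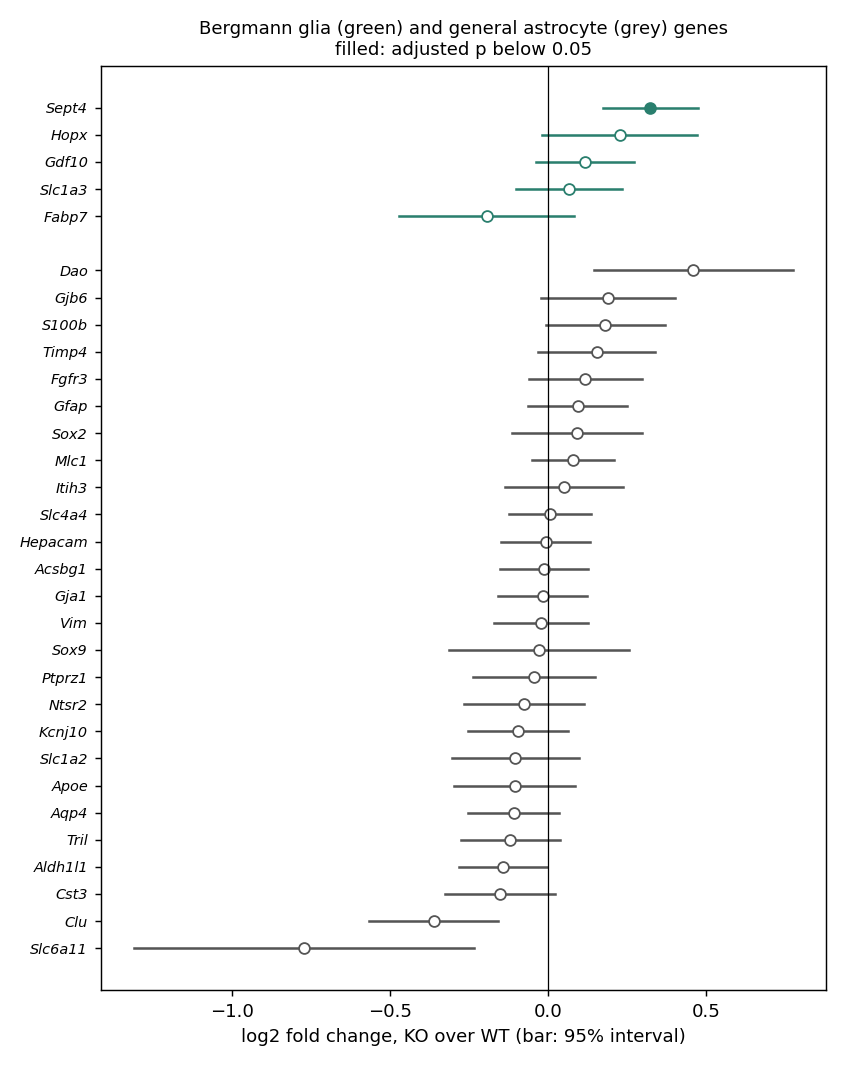
Log2 fold change of each gene, KO over WT, with its 95% interval as a bar. The 5 Bergmann glia genes are on top in green and the 26 general astrocyte genes below in grey, each block ordered by fold change, and the filled point, Sept4 at 0.32, is the 1 gene with an adjusted p below 0.05.

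The Bergmann glia genes are taken first. Sept4, written Septin4 in newer nomenclature, encodes a septin, a GTP-binding cytoskeletal protein found in the processes of Bergmann glia (ENSMUSG00000020486, chromosome 11, 87568903 to 87590539, plus strand, GRCm38). Its level was 524, 527 and 569 CPM in KO replicates 1, 2 and 3, against 467, 408 and 420.0 CPM in WT replicates 1, 2 and 3. Each KO library lay above each WT library, and the highest WT library, replicate 1, was the one closest to the KO range. Sept4 was 1.25-fold higher in KO, at 540.0 ± 25.5 CPM in KO and 432 ± 31.2 CPM in WT (log2 fold change 0.32, SE 0.068, adjusted p = 0.0463). The call was near its threshold. It was lost without KO replicate 1 (adjusted p = 0.145), KO replicate 2 (0.189), KO replicate 3 (0.217), WT replicate 2 (0.150) or WT replicate 3 (0.0654) and held without WT replicate 1 (0.00443), while the log2 fold change ranged over 0.28 to 0.38. Oligodendrocytes also express septins including Sept4, and the 12 myelin genes used as markers of these cells summed to 14195 to 14889 CPM in KO and 12876 to 12993 CPM in WT, with 3 higher and 0 lower in KO in edgeR. All 12 had a positive fold change, 9 had all KO values above all WT values, 8 were higher at an unadjusted p below 0.05, and DESeq2 called 6 higher and limma-voom 3. The part of these cells in the Sept4 difference was not tested. After the group means were taken out, the genes whose levels followed Sept4 most closely over the 6 libraries, among 12236 genes with a mean of at least 5 CPM, were Ppfia4, Ddhd2 and Zdhhc8 (Pearson r 0.999, 0.998 and 0.997, a description of 6 libraries). With so few libraries and so many genes compared, the best r values can be this high without any link to Sept4.

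The other 4 Bergmann glia genes did not pass. Hopx, a small homeodomain protein gene of radial glia and Bergmann glia, was at 113, 117 and 136 CPM in KO replicates 1, 2 and 3, against 119, 108 and 85.5 CPM in WT replicates 1, 2 and 3. Its exons overlap those of the antisense gene Hopxos over 27.2% of their length. Without strand, reads in the shared stretch are ambiguous and count for neither gene. The groups overlapped, with WT replicate 3 apart at the low end and KO replicate 3 at the high end (log2 fold change 0.23, SE 0.11, adjusted p = 0.323). Gdf10, which encodes a secreted protein of the BMP family, had 373, 396 and 416 CPM in KO replicates 1, 2 and 3, against 395, 359 and 339 CPM in WT replicates 1, 2 and 3. WT replicate 1 lay inside the KO range, and the log2 fold change was 0.12 (SE 0.07, adjusted p = 0.419).

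Slc1a3 encodes the glutamate transporter GLAST, the main glutamate uptake protein of Bergmann glia. Its level was 1378, 1442 and 1504 CPM in KO replicates 1, 2 and 3, against 1444, 1243 and 1439.8 CPM in WT replicates 1, 2 and 3, and 2 of the 3 WT libraries lay within the KO range (log2 fold change 0.067, SE 0.076, 95% interval -0.10 to 0.23, adjusted p = 0.679). Fabp7, the brain fatty acid binding protein gene of radial glia and immature astroglia, was the 1 Bergmann gene with a negative value. It was at 384, 375 and 304 CPM in KO replicates 1, 2 and 3, against 385, 489 and 344 CPM in WT replicates 1, 2 and 3. WT replicate 2 stood highest and KO replicate 3 lowest, and the groups overlapped (log2 fold change -0.19, SE 0.12, adjusted p = 0.442).

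The first listed RefSeq promoter (GRCm38.p6, 300 bases around the transcription start, given on the gene's own strand) is shown for Sept4, the gene that rose, for Slc1a3, the Bergmann gene with the most counts, for Fabp7, the Bergmann gene on the other side of 0, and for Slc6a11, the general astrocyte gene with the widest difference between libraries. Capitals mark matches on either strand to TTGGC (half-site of nuclear factor I proteins, which act in gliogenesis), ATTGTT (core of SOX proteins), TGGGAA (RBPJ, the DNA-binding partner of Notch), and TATAAA, the TATA box. The regions are chr11:87566439-87566738 (plus strand) for Sept4, chr15:8710758-8711057 (minus) for Slc1a3, chr10:57784673-57784972 (plus) for Fabp7 and chr6:114130991-114131290 (plus) for Slc6a11.
Sept4: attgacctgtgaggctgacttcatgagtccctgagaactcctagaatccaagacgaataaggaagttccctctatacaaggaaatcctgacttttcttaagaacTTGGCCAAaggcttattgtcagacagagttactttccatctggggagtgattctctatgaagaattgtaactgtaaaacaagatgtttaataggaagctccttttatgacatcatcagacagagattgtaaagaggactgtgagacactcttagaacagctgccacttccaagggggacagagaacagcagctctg
Slc1a3: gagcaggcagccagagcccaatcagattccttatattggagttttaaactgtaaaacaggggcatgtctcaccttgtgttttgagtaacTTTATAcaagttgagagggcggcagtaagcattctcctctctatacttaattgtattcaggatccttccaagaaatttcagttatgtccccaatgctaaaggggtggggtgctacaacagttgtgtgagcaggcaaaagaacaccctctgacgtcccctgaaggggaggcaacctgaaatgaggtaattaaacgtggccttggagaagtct
Fabp7: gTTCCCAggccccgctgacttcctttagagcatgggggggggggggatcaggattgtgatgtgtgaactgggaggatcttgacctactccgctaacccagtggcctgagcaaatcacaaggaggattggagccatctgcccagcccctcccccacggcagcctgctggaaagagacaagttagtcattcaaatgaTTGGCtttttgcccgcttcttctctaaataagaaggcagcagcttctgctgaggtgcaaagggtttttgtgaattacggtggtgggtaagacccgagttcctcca
Slc6a11: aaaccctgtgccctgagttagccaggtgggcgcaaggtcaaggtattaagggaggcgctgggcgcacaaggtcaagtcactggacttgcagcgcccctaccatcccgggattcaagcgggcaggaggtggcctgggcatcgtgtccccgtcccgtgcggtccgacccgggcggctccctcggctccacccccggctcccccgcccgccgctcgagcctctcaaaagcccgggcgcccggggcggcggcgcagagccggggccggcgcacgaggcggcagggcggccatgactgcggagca
Sept4 held 2 overlapping half-sites for nuclear factor I, 1 on each strand, Slc1a3 held 1 TATA match on the strand opposite to the one shown, and Fabp7 held 1 nuclear factor I half-site and 1 RBPJ match. No listed letters were found in the Slc6a11 stretch, which had a GC content of 72.3%, beside 42.3% for Sept4. Sept4 has 4 starts in this table, of which the first lies upstream of the gene start given above, and gene counts do not say which one was used. Of the 28 members with an entry, taking the first listed start of each, 64.3% held TTGGC, beside 46.7% of all 32851 promoters. TGGGAA was present in 35.7% of the members, beside 25.6% of all, TATAAA in 10.7% beside 13.6%, and ATTGTT in 0 members beside 10.7%. These matches are letters in a window and not binding sites.

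**Figure D2:**
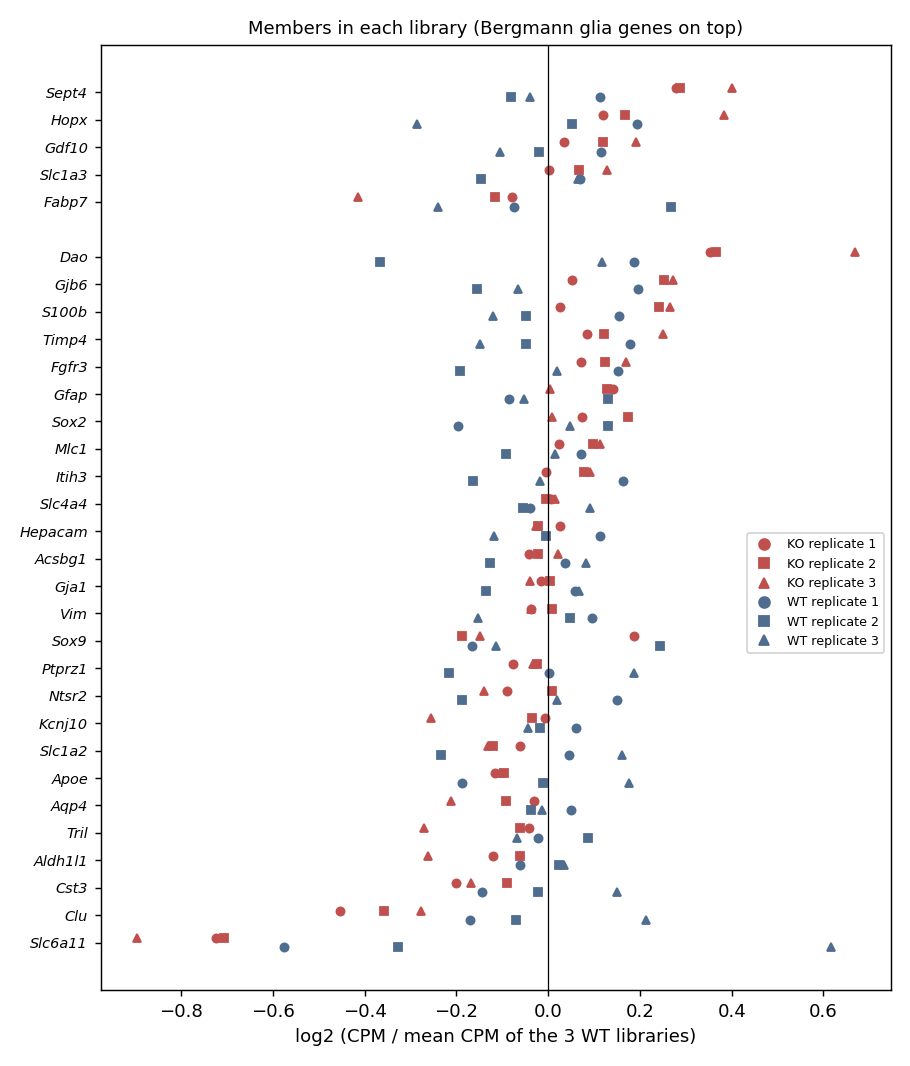
Level of each gene in each library as log2 of its CPM over the mean of the 3 WT libraries, with KO points drawn above WT points in each row and the Bergmann glia genes on top. KO points lie to the right of all WT points for Sept4 and Dao and to the left for Clu and Slc6a11, and WT replicate 3 lies far to the right for Slc6a11.

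Among the transmitter transporters of general astrocytes, Slc6a11 had the largest fold change of the set and did not pass. Slc6a11 encodes the GABA transporter GAT-3, which in the brain is found mainly on astrocytes and is abundant in the brainstem. It was at 78.2, 79.1 and 69.3 CPM in KO replicates 1, 2 and 3, against 86.6, 103 and 198 CPM in WT replicates 1, 2 and 3. All KO values were below all WT values, and WT replicate 3 lay far above the other 5 libraries. The mean of 75.5 ± 5.41 CPM in KO stood against 129 ± 60.1 CPM in WT (log2 fold change -0.77, SE 0.24, adjusted p = 0.143). Without WT replicate 3 the log2 fold change was -0.32 (adjusted p = 0.0866), and without WT replicate 1 it was -0.998 (adjusted p = 0.0138).

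WT replicate 3 held transcripts of brainstem monoamine neurons. The serotonin transporter gene Slc6a4 had 2, 3 and 2 counts in KO replicates 1, 2 and 3, and 2, 0 and 159 counts in WT replicates 1, 2 and 3. Tph2, which encodes the enzyme of serotonin synthesis in neurons, was at 1.17, 1.03 and 0.993 CPM in KO replicates 1, 2 and 3, against 1.57, 1.47 and 6.61 CPM in WT replicates 1, 2 and 3. For Dbh, the noradrenaline synthesis gene, 12, 5 and 5 reads were counted in KO replicates 1, 2 and 3, against 9, 3 and 56 reads in WT replicates 1, 2 and 3. Of 14 brainstem markers, 6 passed the filter on low counts, summing to 33.5 to 36.9 CPM in KO and 41.4 to 63.2 CPM in WT, with 0 higher and 2 lower in KO (3 lower in DESeq2 and 1 in limma-voom). Each of the other 8 had at least 1 read in some library, and Hoxa5 had 1, 0 and 2 reads in the KO libraries, against 13, 13 and 7 in the WT libraries. The part of brainstem tissue in the Slc6a11 difference was not tested beyond leaving out this library.

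Slc1a2, the gene of the glutamate transporter GLT-1, was at 659.9, 633 and 629 CPM in KO replicates 1, 2 and 3, against 711, 585 and 769 CPM in WT replicates 1, 2 and 3. The KO libraries lay between WT replicate 2 and WT replicate 1 (log2 fold change -0.10, SE 0.091, adjusted p = 0.583).

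**Figure D3:**
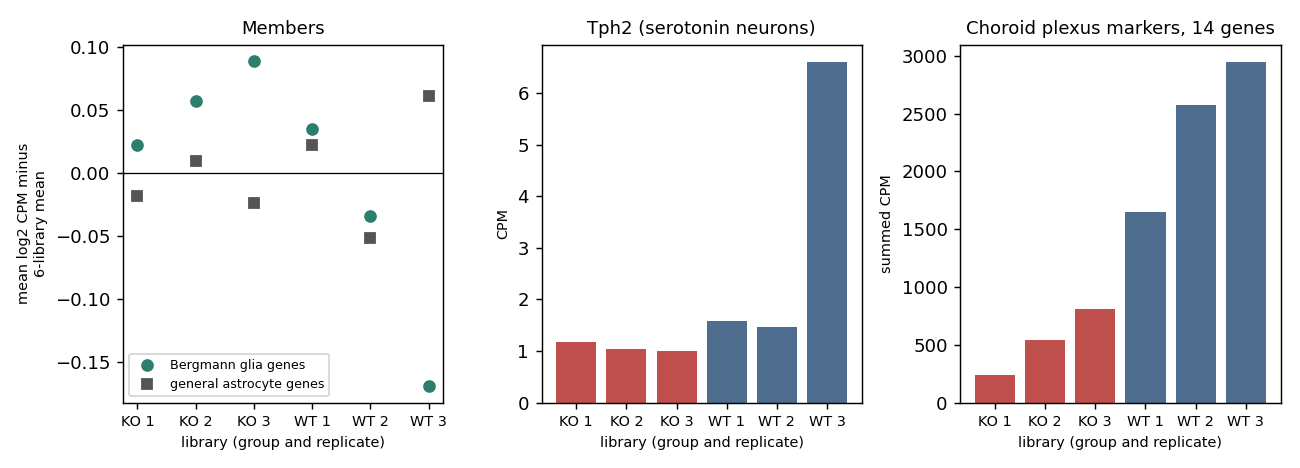
Left, mean log2 CPM of the Bergmann glia genes and of the general astrocyte genes in each library, minus the mean of the 6 libraries. Middle, Tph2 in CPM, and right, the summed CPM of 14 choroid plexus markers, with KO libraries in red left of WT libraries in blue. In WT replicate 3 the 2 gene groups lie apart, at -0.17 and 0.061, and Tph2 is at 6.61 CPM.

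Genes of ion, water and volume control did not pass. Kcnj10, the gene of the astrocytic potassium channel Kir4.1, was at 251 ± 23.1 CPM in KO and 269 ± 10.4 CPM in WT (log2 fold change -0.095, adjusted p = 0.516). Aqp4, the water channel of astrocyte endfeet, was at 563 ± 35.6 CPM in KO and 607 ± 19.2 CPM in WT (log2 fold change -0.11, adjusted p = 0.404). Slc4a4, a sodium bicarbonate cotransporter gene, was at 435 ± 3.14 CPM in KO and 433 ± 24.4 CPM in WT, with a 95% interval of the log2 fold change of -0.13 to 0.14. The interval was of like width for Hepacam (-0.15 to 0.13), the gene of the adhesion protein GlialCAM, and for Mlc1 (-0.052 to 0.21), whose product is the partner of GlialCAM in astrocyte volume regulation.

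Of the gap junction genes, Gja1 (connexin 43) was at 201 ± 3.08 CPM in KO and 204 ± 15.8 CPM in WT and Gjb6 (connexin 30) at 44.1 ± 3.63 CPM in KO and 38.5 ± 4.99 CPM in WT. The log2 fold changes were -0.018 (SE 0.063) and 0.19 (SE 0.10), and neither passed (adjusted p = 0.911 and 0.335).

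The intermediate filament genes, which are known to increase in reactive astrocytes, did not pass. Gfap was at 437, 432 and 396 CPM in KO replicates 1, 2 and 3, against 373, 433 and 381 CPM in WT replicates 1, 2 and 3. WT replicate 2 lay inside the KO range, and the log2 fold change was 0.093 (SE 0.071, adjusted p = 0.528). Vim was at 159 ± 2.93 CPM in KO and 162 ± 14.5 CPM in WT (log2 fold change -0.022, adjusted p = 0.894). S100b, a calcium-binding protein gene of astrocytes and Bergmann glia, was at 273 ± 24.3 CPM in KO and 240.3 ± 24.3 CPM in WT (log2 fold change 0.18, SE 0.085, adjusted p = 0.303).

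In metabolism, Dao had the largest positive fold change of the set. It encodes D-amino acid oxidase, the peroxisomal enzyme that breaks down D-serine and is abundant in cerebellar astroglia. It had 20.5, 20.7 and 25.5 CPM in KO replicates 1, 2 and 3, against 18.3, 12.4 and 17.4 CPM in WT replicates 1, 2 and 3. All KO values were above all WT values, and the gene did not pass (log2 fold change 0.46, SE 0.14, adjusted p = 0.139). Dao had the lowest counts of the 31 genes, with 212 in WT replicate 2, and it lies on chromosome 5, 16.8 Mb from Galnt17. Hopx, Slc4a4 and Fgfr3 lie on the same chromosome, farther away. At linked genes, strain sequence that travels with the allele and the loss of Galnt17 cannot be told apart. At genes elsewhere, Sept4 and Clu among them, C57BL/6J and C3H/He sequence may also differ between the KO and WT mice, and this was not tested. The other metabolic genes did not pass. Aldh1l1, a folate enzyme gene widely used as a pan-astrocyte marker, was at 75.5 ± 5.35 CPM in KO and 83.6 ± 3.02 CPM in WT (log2 fold change -0.14, adjusted p = 0.271), and Acsbg1, an acyl-CoA synthetase gene, at 253 ± 5.65 CPM in KO and 256 ± 19.1 CPM in WT (log2 fold change -0.014, adjusted p = 0.929).

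Of the secreted proteins, Clu came nearest to the threshold. It encodes clusterin, an extracellular chaperone and lipoprotein component made by astrocytes and also by choroid plexus and ependyma. Its level was 158, 169 and 179 CPM in KO replicates 1, 2 and 3, against 193, 207 and 251 CPM in WT replicates 1, 2 and 3. The KO values were below the WT values without overlap, 1.28-fold lower, and did not pass (log2 fold change -0.36, SE 0.092, adjusted p = 0.0869). The 14 choroid plexus markers, all of them detected, summed to 242, 539 and 806 CPM in KO replicates 1, 2 and 3, against 1647, 2574 and 2949 CPM in WT replicates 1, 2 and 3. This is the order of the libraries for Clu, 10 of the 14 fell in KO, and the part of choroid plexus RNA in the Clu difference was not tested. Ependymal markers, 8 of 9 tested, summed to 74.5 to 83.3 CPM in KO and 74.7 to 88.1 CPM in WT with 0 calls in edgeR, DESeq2 and limma-voom and 2 lower at an unadjusted p below 0.05 in edgeR. Most of this sum was Pltp, named after its values were seen, at 57.2 ± 2.73 CPM in KO and 55.8 ± 1.80 CPM in WT, and the 8 genes had a median log2 fold change of -0.40. Rsph1, a gene of motile cilia, was at 1.83 ± 0.383 CPM in KO and 3.29 ± 0.558 CPM in WT and Cfap126, a cilia and flagella protein gene, at 0.995 ± 0.328 CPM in KO and 2.32 ± 0.797 CPM in WT, both with KO values below WT values without overlap (adjusted p = 0.106 and 0.106). The part of ependymal RNA in the Clu difference was not tested either.

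The other secreted products did not pass. Apoe, the main lipid carrier gene of the brain, was at 1184, 1201 and 1193 CPM in KO replicates 1, 2 and 3, against 1127, 1274 and 1450.3 CPM in WT replicates 1, 2 and 3, and Cst3, the cystatin C gene, at 537 ± 21.4 CPM in KO and 597 ± 62.0 CPM in WT (adjusted p = 0.554 and 0.339). The 3 KO libraries were within a narrow band for Apoe, and the WT libraries lay on both sides of it. Timp4, a metalloproteinase inhibitor gene, was at 241 ± 14.7 CPM in KO and 217 ± 25.5 CPM in WT and Itih3, a hyaluronan-binding serum protein gene, at 34.8 ± 1.24 CPM in KO and 33.5 ± 3.84 CPM in WT (adjusted p = 0.364 and 0.798). Microglia also make Apoe and Cst3, and 12 of their markers summed to 183 to 195 CPM in KO and 176 to 196 CPM in WT, with 0 calls in all 3 tools and 1 higher at an unadjusted p below 0.05 in edgeR. The part of microglia, or of the choroid plexus RNA that was lower in KO, in the Apoe and Cst3 values was not tested.

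Receptors, surface proteins and transcription regulators did not pass either. Fgfr3, a fibroblast growth factor receptor gene, was at 66.0 ± 2.28 CPM in KO and 60.6 ± 7.21 CPM in WT, Ntsr2, a neurotensin receptor gene, at 38.8 ± 2.05 CPM in KO and 40.7 ± 4.72 CPM in WT, Tril, a Toll-like receptor partner gene, at 112 ± 9.64 CPM in KO and 122 ± 6.77 CPM in WT and Ptprz1, a receptor phosphatase gene, at 274 ± 5.38 CPM in KO and 282 ± 39.03 CPM in WT. Their adjusted p values were 0.474, 0.679, 0.411 and 0.823. Aldh1l1, Fgfr3 and Tril share 11.1% to 16.0% of their exon length with a gene on the opposite strand. Sox9, which drives glial fate, was at 31.1, 24.0 and 24.7 CPM in KO replicates 1, 2 and 3, against 24.4, 32.4 and 25.3 CPM in WT replicates 1, 2 and 3. KO replicate 1 and WT replicate 2 stood above the other 4 libraries, and both groups spanned nearly the same range (log2 fold change -0.03, SE 0.13, adjusted p = 0.927). Sox2, a gene of neural progenitors and Bergmann glia, was at 29.3 ± 1.70 CPM in KO and 27.6 ± 3.15 CPM in WT (log2 fold change 0.091, adjusted p = 0.642).

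**Figure D4:**
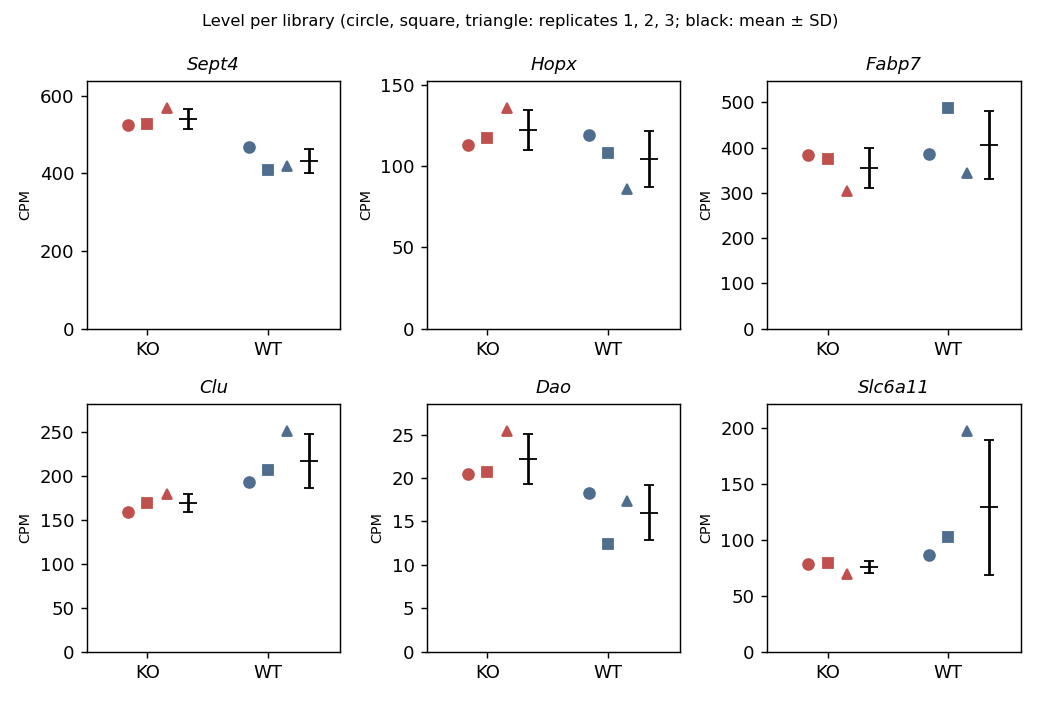
CPM of 6 genes in each library, KO left of WT, with symbols for replicates 1, 2 and 3 and the mean ± SD in black. Sept4 and Dao are higher and Clu and Slc6a11 lower in every KO library than in every WT library, while Hopx and Fabp7 overlap, and WT replicate 3 stands at 198 CPM for Slc6a11.

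Bergmann glia genes and general astrocyte genes were then set side by side. The median log2 fold change was 0.12 over the 5 Bergmann genes, with 4 above 0, 1 below and 1 called higher in edgeR. At an unadjusted p below 0.05 they had 1 higher and 0 lower, as in DESeq2 and limma-voom. The median was -0.02 over the 26 general genes, with 10 above 0, 16 below and 0 called in edgeR. These had 1 higher and 3 lower at an unadjusted p below 0.05, 1 higher and 1 lower in DESeq2, and 0 in limma-voom. Over all genes tested the median was -0.0073, with 8845 above 0, 9392 below and 1.66% called in edgeR. Of all genes, 17.6% had an unadjusted p below 0.05 in edgeR, and DESeq2 called 3.08% and limma-voom 1.71%. The 1 Bergmann call was Sept4, near its threshold, and the difference between the 2 gene groups was not tested. The mean deviation of the Bergmann genes from their 6-library mean, on the log2 CPM scale, was 0.022, 0.057 and 0.089 in KO replicates 1, 2 and 3, against 0.035, -0.034 and -0.17 in WT replicates 1, 2 and 3. For the general genes it was -0.018, 0.0091 and -0.023 in KO, against 0.022, -0.051 and 0.061 in WT. The Bergmann value minus the general value was 0.04, 0.048 and 0.11 in KO, against 0.013, 0.017 and -0.23 in WT. WT replicate 3, the library with monoamine neuron RNA, had the lowest Bergmann mean and the highest general mean. In the difference of the 2 means the other 5 libraries lay within 0.1 of one another. The general mean includes Slc6a11, at 198 CPM in WT replicate 3 and 69.3 to 103 CPM elsewhere. Slc1a3 was not low in WT replicate 3, at 1439.8 CPM. Among the WT libraries, replicate 3 was highest for 10 of the 31 members and lowest for 9. How far single genes set these means was not tested. Without WT replicate 3 the log2 fold change was 0.31 for Sept4, 0.10 for Hopx, 0.069 for Gdf10, 0.10 for Slc1a3 and -0.30 for Fabp7. Hopx and Gdf10 were then nearer to 0 and Slc1a3 and Fabp7 farther from it, and the median of the 5 genes was 0.10, beside 0.12 with all libraries.

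The spread of the astroglial genes was wider among the WT than among the KO animals, as it was for most genes, and this was not tested. The median SD of log2 CPM was 0.076 in KO and 0.15 in WT over the 31 genes, beside 0.053 in KO and 0.098 in WT over the 10687 genes above 10 CPM. The WT spread was the wider one in 27 of the 31 genes (87.1%), beside 76.4% of those 10687 genes. Among the KO libraries replicate 1 was lowest for 17 genes and replicate 3 highest for 14, and among the WT libraries replicate 2 was lowest for 14 and replicate 1 highest for 16.

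Levels per kilobase of exon, which allow genes to be compared with one another, put Apoe first, at 558 ± 3.93 CPM per kb in KO and 600.4 ± 75.8 CPM per kb in WT, followed by Cst3, Fabp7, S100b, Slc1a3 and Sept4 in WT. The neighbours S100b and Slc1a3 lay within 1 SD of each other in WT, at 162 ± 16.4 and 161 ± 13.5 CPM per kb. Slc1a2 was lower than Slc1a3, at 48.8 ± 1.29 CPM per kb in KO and 52.4 ± 7.17 CPM per kb in WT, and Dao was lowest in WT, at 7.52 ± 0.959 CPM per kb in KO and 5.43 ± 1.07 CPM per kb in WT. The length used was the union of all annotated exons, which lowers the value of genes with long, rarely used or shared exons.

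**Figure D5:**
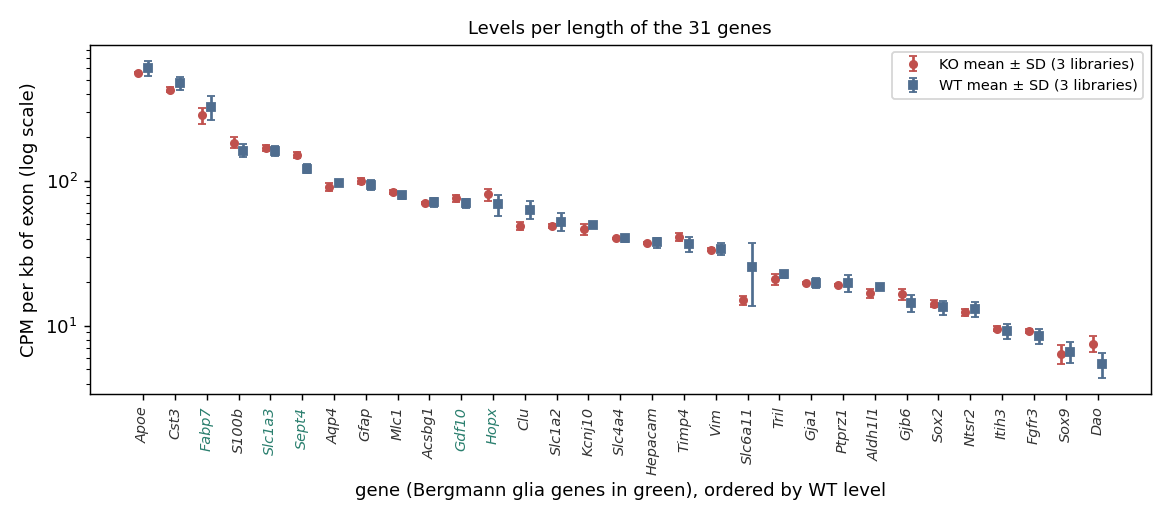
Mean level per kilobase of exon on a log axis, with SD bars over 3 libraries, KO in red left of WT in blue for each gene, ordered by the WT level and with the Bergmann glia genes named in green. Apoe is highest and Dao lowest in WT, and the widest bar relative to its mean is that of Slc6a11 in WT.

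A second list of 51 astroglial genes held 1 higher and 1 lower gene (3.92% called, beside 1.66% of all genes), with a median log2 fold change of -0.027. At an unadjusted p below 0.05 in edgeR, 6 of the 51 were higher and 10 lower, a larger share than the 17.6% of all genes. Gria4, which encodes an AMPA receptor subunit that Bergmann glia express together with Gria1 and that neurons express too, was at 484, 492 and 506 CPM in KO replicates 1, 2 and 3, against 373, 304 and 298 CPM in WT replicates 1, 2 and 3. Every KO library was above every WT library, and Gria4 rose 1.52-fold (log2 fold change 0.60, SE 0.083, adjusted p = 0.00558). The call held whichever library was left out, with a highest adjusted p of 0.0468. The 12 Purkinje cell markers summed to 7201 to 7424 CPM in KO and 5904 to 6352 CPM in WT, with 11 positive fold changes, 3 genes higher in edgeR, 7 in DESeq2 and 4 in limma-voom, and KO values above WT values without overlap for 9, and the part of neurons in the Gria4 difference was not tested. Gria1, named after its values were seen, did not pass (487 ± 5.33 CPM in KO and 422 ± 66.2 CPM in WT, adjusted p = 0.291). Etv5, a transcription factor gene downstream of fibroblast growth factor signalling in Bergmann glia, fell 1.25-fold, with 70.8, 72.9 and 74.1 CPM in KO replicates 1, 2 and 3, against 92.5, 96.0 and 85.0 CPM in WT replicates 1, 2 and 3 (log2 fold change -0.33, SE 0.059, adjusted p = 0.0232). Its call was lost without KO replicate 1, 2 or 3 (adjusted p = 0.143, 0.139 and 0.0986) or WT replicate 2 (0.0917).

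Of 20 genes of reactive glia 2 rose and 0 fell in edgeR, a called share of 10% beside 1.66% of all genes (the same counts in DESeq2 and limma-voom). These genes too were listed with earlier results of these data known, so the share is no independent comparison. At an unadjusted p below 0.05, 2 were higher and 2 lower, beside 17.6% of all genes. The list had a median log2 fold change of -0.0066. In it, 2 genes (10%) had all KO values above all WT values, beside 11.5% of all genes tested, and 3 (15%) all below, beside 12.2%. The genes that rose were the complement gene C4b, at 8.55, 7.65 and 7.70 CPM in KO replicates 1, 2 and 3, against 4.18, 5.28 and 5.06 CPM in WT replicates 1, 2 and 3 (log2 fold change 0.73, SE 0.14, adjusted p = 0.0335), and S100a10, a calcium-binding protein gene, at 23.4, 24.0 and 24.1 CPM in KO replicates 1, 2 and 3, against 19.3, 15.7 and 16.3 CPM in WT replicates 1, 2 and 3 (log2 fold change 0.47, SE 0.092, adjusted p = 0.0342). In both genes the groups did not overlap. C4b is also made by oligodendrocytes, and both calls were lost without KO replicate 1, 2 or 3 or WT replicate 2, the adjusted p reaching 0.172 and 0.170. S100a10 was also lost without WT replicate 3 (0.0533). The reactive astrocyte genes Serpina3n (7.13 ± 0.219 CPM in KO and 7.16 ± 1.13 CPM in WT), Cd44 and Lcn2, named after their values were seen, did not pass (adjusted p = 0.987, 0.813 and 0.452). Lgals1, Stat3 and C3, also named after their values were seen, had all KO values below all WT values. Their log2 fold changes were -0.39, -0.23 and -0.40, and none passed in edgeR (adjusted p = 0.0948, 0.147 and 0.513).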

How the data were processed

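Gene counts of 6 cerebellar RNA-seq libraries (3 KO, 3 WT) were used. The deposited values are raw counts per gene made with STAR 2.7.5a, per the submitters' processing notes, on mm10 (GRCm38) and Ensembl release 102, per the file names. The unstranded column was used (the first strand column held 49.9% to 50.0% of stranded reads). Reads in exons shared by genes on opposite strands are therefore ambiguous and count for neither gene. Of the members, Hopx (with Hopxos), Aldh1l1, Fgfr3 and Tril share over 10% of their exon length with a gene on the opposite strand. STAR's 4 lines that name no gene were left out; they held 24.5% to 33.1% of each library's reads. GENCODE M21 named 55227 of 55487 identifiers.

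Genes passing edgeR's default filter (minimum count 10, minimum total 15) were tested in R 4.3.3 using edgeR 4.0.16 (scaling by TMM and the two-sided quasi-likelihood F test, with adjustment after Benjamini and Hochberg). SEs and 95% intervals derive from the F statistic. DESeq2 1.42.0 and limma-voom (limma 3.58.1), other scalings and filters and leaving out each library were alternatives. The steps were tested on simulated counts. Log2 CPM used a prior count of 2. Each library is 1 animal, and replicate numbers follow accession order. Intervals include no PCR-duplicate correction, since no molecular identifiers are named.

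The members and lists were chosen with earlier results of these data known, so their called shares are no independent comparison with all genes. The rule for named genes took all 31 members, Galnt17, up to 4 called genes of each other list (or up to 2 with the smallest p where none was called) and, for Sept4, the 3 genes most like it. For lists of other cell types only counts and sums are printed, apart from Rsph1 and Cfap126, which the rule took, and Pltp, Slc6a4, Tph2, Dbh and Hoxa5, which were chosen after their values were seen. Promoter sequences are from RefSeq (GRCm38.p6), matched by symbol for 28 of the 31 members. Precursor, endothelial and mural, and meningeal markers were checked too: of 8, 12 and 10 genes, 0 were called in edgeR, with 0 higher and 4 lower, 0 higher and 1 lower, and 3 higher and 0 lower at an unadjusted p below 0.05. DESeq2 called 1 precursor and 1 endothelial or mural gene lower, and limma-voom 0. Granule cell markers had 0 calls in edgeR and limma-voom, 1 higher in DESeq2 and 1 higher at an unadjusted p below 0.05. Of the 12 Purkinje cell markers, 3 were higher and 0 lower in edgeR, 7 higher in DESeq2, 4 in limma-voom and 8 at an unadjusted p below 0.05.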

Additional observations from a re-analysis of the deposited data

How the results depend on the processing

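Scaling by DESeq2's size factors or without mitochondrially encoded genes, a filter of 1 CPM in 3 libraries and limma-voom kept every count of calls within 1.5 times and Sept4 as the 1 called member, and so did library totals. Under library totals Hepacam (0.0077) and Acsbg1 (0.0022) changed sign, both near 0. DESeq2 called 290 higher and 272 lower genes in all, 2 higher members (Sept4 and Dao) and 1 lower (Clu, adjusted p = 0.00522), and 2 lower genes of the second astroglial list. With no filter beyond 1 count there were 803 higher and 820 lower genes, 4.85% of the genes then tested. That fit called 3 higher members (Hopx, Sept4 and Dao) and 2 lower (Clu and Slc6a11). It also called 4 higher and 6 lower genes of the second list and 1 lower reactive gene, and the cause was not tested. Leaving out 1 library gave 28 to 959 higher and 53 to 962 lower genes, 0 to 5 higher and 0 to 2 lower members, 1 to 6 higher and 0 to 6 lower genes of the second list, and 0 to 3 higher and 0 to 2 lower reactive genes. The upper ends all came without WT replicate 1, where Sept4, S100b, Gjb6, Timp4 and Dao were higher and Clu and Slc6a11 lower, beside 10.5% of all genes called. The log2 fold change ranged over both signs for Hepacam (-0.061 to 0.053), Gja1 (-0.077 to 0.019), Ptprz1 (-0.14 to 0.0597), Sox9 (-0.16 to 0.11), Sox2 (-0.0017 to 0.16), Slc4a4 (-0.018 to 0.055), Ntsr2 (-0.15 to 0.0048), Acsbg1 (-0.0698 to 0.031), Itih3 (-0.0197 to 0.14) and Vim (-0.091 to 0.028). The median of the Bergmann genes stayed at 0.076 to 0.18. No paired analysis was possible because GEO's labels carry animal tags and no replicate numbers, and the tags do not link KO to WT animals. With 3 animals a group, the 95% interval included 0 for 26 of the 31 members, and the farthest bound among them was a log2 fold change of 0.47.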

Other observations

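In the second astroglial list, 9 genes (17.6%) had all KO values below all WT values, beside 12.2% of all genes tested, and 5 (9.80%) had all KO values above, beside 11.5%. Those named here were chosen after their values were seen, and none of them passed. Atp1b2, a subunit gene of the sodium pump of astrocytes, was at 735 ± 20.0 CPM in KO and 851 ± 34.4 CPM in WT (log2 fold change -0.21, adjusted p = 0.115). Glul, the glutamine synthetase gene that completes glutamate recycling in astroglia, was at 389, 402 and 433 CPM in KO replicates 1, 2 and 3, against 442, 442 and 518 CPM in WT replicates 1, 2 and 3 (log2 fold change -0.20, adjusted p = 0.215). Mfge8, a secreted phagocytosis protein gene, was at 75.5 ± 0.739 CPM in KO and 87.7 ± 4.98 CPM in WT (adjusted p = 0.0902).

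Gpr37l1, a receptor gene of Bergmann glia and other astrocytes, was at 649, 644 and 649 CPM in KO replicates 1, 2 and 3, against 575, 547 and 596 CPM in WT replicates 1, 2 and 3 (log2 fold change 0.18, adjusted p = 0.158). Gli1, a Hedgehog target gene that Bergmann glia and granule cell precursors express, was at 24.4 ± 1.01 CPM in KO and 19.6 ± 2.76 CPM in WT (adjusted p = 0.158), and its KO values were above its WT values without overlap. Id4, an inhibitor of differentiation gene of astroglia, overlapped between the groups, at 125 ± 7.13 CPM in KO and 106 ± 11.2 CPM in WT (adjusted p = 0.155).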
